A study of Mus musculus with 96 samples.

Results

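The 30 genes described here make, load and receive the inhibitory transmitter GABA, or mark and specify GABAergic interneurons. They were chosen by function, and each consensus window deposited under the symbol of a member was taken from 6 tables, which hold H3K4me3, H3K27me3 and Suz12 in NeuN+ and in NeuN- nuclei. This gave 68 windows of 22815, at 23 of the 30 genes. The tables held no window under the symbols Gabra3, Gabra6, Pvalb, Vip, Dlx1, Dlx5 and Dlx6. The nuclei came from the hippocampus of C57BL/6N mice at 6 months of age, and the groups were WT, Mutyh-/-, Ogg1-/- and the double knockout Mutyh-/-xOgg1-/- (DKO). Mutyh and Ogg1 encode DNA glycosylases, which start the repair of oxidised guanine in DNA or of the adenine mispaired with it, and the knockout animals lack them in all cells. Flow sorting used NeuN, which labels the nuclei of most neurons, so that NeuN+ nuclei are those of neurons of all types and NeuN- nuclei are mostly those of glia. Each group had 3 replicates in each table, 72 libraries in all, and a replicate is a pool of hippocampi from several animals of that genotype.

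GABA is made from glutamate by the glutamic acid decarboxylases Gad1 and Gad2 and is packed into synaptic vesicles by the transporter Slc32a1. It acts on GABA-A receptors, which are chloride channels built from alpha, beta, gamma and delta subunits and anchored at synapses by gephyrin (Gphn), and on the G-protein-coupled GABA-B receptor, a dimer of Gabbr1 and Gabbr2. Interneurons are a minority among hippocampal neurons and are told apart by markers such as Pvalb, Sst, Vip, Npy, Calb2 and Reln, while the transcription factors Nkx2-1, Lhx6, Maf and the Dlx family direct their development in the embryonic forebrain. The receptor tyrosine kinase Erbb4 is found on many of them. H3K4me3 lies at active promoters. H3K27me3 is written by Polycomb repressive complex 2 (PRC2), of which Suz12 is a core subunit, and lies at genes that are kept silent. In the excitatory cells that make up most NeuN+ nuclei, many interneuron genes are silent.

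The sequences below come from windows that the results describe. They were read from GRCm38 and are given 5′ to 3′ on the strand of the gene, with CpG dinucleotides in capitals. The Gad1 stretch (chr2:70563358-70563441, plus strand) is intronic sequence inside the H3K27me3 window at a transcript start of the gene. The Lhx6 stretch (chr2:36097142-36097441, minus strand) lies in an intron and is the centre of the H3K27me3 window with the highest WT level among the members. The Nkx2-1 stretch (chr12:56536167-56536308, minus strand) is intronic, overlaps the opposite-strand gene Gm26973 and comes from the Suz12 window with the highest WT level. The first Maf stretch (chr8:115445198-115445497, minus strand) and the second (chr8:115362286-115362585, minus strand) are intergenic, 262 kb and 345 kb downstream of the start of Maf. They come from both H3K27me3 member windows of NeuN+ nuclei called between a knockout and WT before adjustment. Neither passed adjustment (adjusted p = 0.998 at each, limma).
Gad1: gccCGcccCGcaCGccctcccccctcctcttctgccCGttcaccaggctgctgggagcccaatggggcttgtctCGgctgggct
Lhx6: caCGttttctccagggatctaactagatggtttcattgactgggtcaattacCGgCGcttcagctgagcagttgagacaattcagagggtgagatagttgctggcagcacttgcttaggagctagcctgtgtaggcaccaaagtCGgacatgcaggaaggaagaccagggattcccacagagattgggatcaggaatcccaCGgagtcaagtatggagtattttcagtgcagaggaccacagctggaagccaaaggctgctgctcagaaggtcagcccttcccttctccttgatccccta
Nkx2-1: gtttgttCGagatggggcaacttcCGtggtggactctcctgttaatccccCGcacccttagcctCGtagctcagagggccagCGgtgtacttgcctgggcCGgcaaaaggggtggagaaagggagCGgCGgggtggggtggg
Maf first: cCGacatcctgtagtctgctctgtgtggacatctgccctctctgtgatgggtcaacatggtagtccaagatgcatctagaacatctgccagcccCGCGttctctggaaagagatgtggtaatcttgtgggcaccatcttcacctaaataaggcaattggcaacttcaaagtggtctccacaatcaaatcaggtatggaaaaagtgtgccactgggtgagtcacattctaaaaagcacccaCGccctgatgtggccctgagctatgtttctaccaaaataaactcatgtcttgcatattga
Maf second: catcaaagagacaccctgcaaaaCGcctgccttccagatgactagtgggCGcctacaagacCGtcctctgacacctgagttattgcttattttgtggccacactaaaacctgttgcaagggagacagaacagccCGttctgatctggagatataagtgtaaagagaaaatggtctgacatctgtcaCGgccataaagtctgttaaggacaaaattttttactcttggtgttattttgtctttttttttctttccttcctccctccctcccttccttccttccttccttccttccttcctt

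Sst, the gene of the peptide somatostatin, has a cAMP response element (CRE) upstream of its start, and both H3K27me3 windows of Sst hold its letters. The stretch below (chr16:23890874-23890903, minus strand, GRCm38) has the CRE in capitals, 41 to 48 bases upstream of the RefSeq start. The GENCODE vM21 transcript starts farther upstream, so that the stretch falls in its first exon.
Sst: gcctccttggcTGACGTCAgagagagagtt
The letters TGACGTCA were searched on both strands. Among the 68 windows, 2 held them, both at Sst. Over all windows, 0.315% held them in H3K27me3 NeuN+ and 0.589% in H3K27me3 NeuN-. The shorter core TGACG, which also counts each full CRE, was in 7 of the 31 member windows of H3K27me3 NeuN+ (22.6%) and in 14.3% of all windows there. The homeodomain core TAATTA was in 6 of the 31 (19.4%) and in 9.78% of all windows. These matches describe the windows and were not tested.

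Reads in windows per library lay between 96023 and 548706 for H3K4me3 and between 23794 and 52344 for H3K27me3 in NeuN+ nuclei, and between 6652 and 78250 in the Suz12 tables and H3K27me3 of NeuN- nuclei. H3K4me3 in NeuN- nuclei had 39320 to 120004. A member window held 0 to 68 reads in a library, and the shares of counting error and of variation between pools in the spread were not tested. The library DKO replicate 1 of H3K4me3 NeuN+ had the 96023 reads, and 1 read there stands for 2.26 normalised reads, against 0.758 to 1.29 in the other 11 libraries. The sort was checked on promoter windows of marker genes. In H3K4me3 NeuN+ such a window was present for 8 of 9 neuronal genes, 1 of 6 oligodendrocyte genes (Mbp), 1 of 5 astrocyte genes (Slc1a3) and 0 of 4 microglial genes, while in H3K4me3 NeuN- it was present for 0 of 9 neuronal genes and 1 of 6 oligodendrocyte genes (Olig1), and the other glial and endothelial markers had none. H3K27me3 lay at promoters of 4 of 6 oligodendrocyte genes (Olig1, Olig2, Sox10 and Pdgfra) and 0 of 9 neuronal genes in NeuN+ nuclei. In NeuN- nuclei it lay at those of 2 of 9 neuronal genes (Rbfox3, which encodes NeuN, and Nefl) and 1 of 6 oligodendrocyte genes (Pdgfra). Of 3 endothelial genes, the same 2 (Cldn5 and Flt1) had H3K27me3 at the promoter in both fractions, so this list did not separate them. Of the targeted genes, Mutyh had no window and Ogg1 had 1, in H3K4me3 NeuN+, which does not test the deletion.

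In NeuN+ nuclei the receptor genes had H3K4me3 windows, and most windows of the interneuron genes were H3K27me3. Of the 17 member windows of H3K4me3 NeuN+ (16 genes, of 12628 windows), 8 belonged to GABA-A subunits, 2 to GABA-B subunits and 1 to Gphn. The rest were at Gad1 and at the interneuron genes Dlx2 (2 windows), Reln, Maf and Erbb4. Of the 31 member windows of H3K27me3 NeuN+ (9 genes, of 4132 windows), none belonged to a receptor subunit. There 18 lay around Maf, 8 at the markers Sst, Npy, Calb2 and Reln, 2 at Gad1 and Gad2, 2 at Erbb4 and 1 at Lhx6. Suz12 NeuN+ had 5 member windows of 775, all at promoters, at Slc32a1, Lhx6, Maf and Nkx2-1. In NeuN- nuclei, 6 of 3270 H3K4me3 windows, 8 of 1698 H3K27me3 windows and 1 of 312 Suz12 windows were members. By the deposited annotation, 42 of the 68 windows were at promoters and 15 were distal intergenic. The symbol is that of the gene with the closest start, and 4 of the windows under Maf lie within Wwox, its neighbour. A window over the start of Slc32a1 in H3K27me3 NeuN+ was deposited under Gm14204 and so is not a member. Its WT values were 7.67, 13.3 and 6.89.

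**Figure D1:**
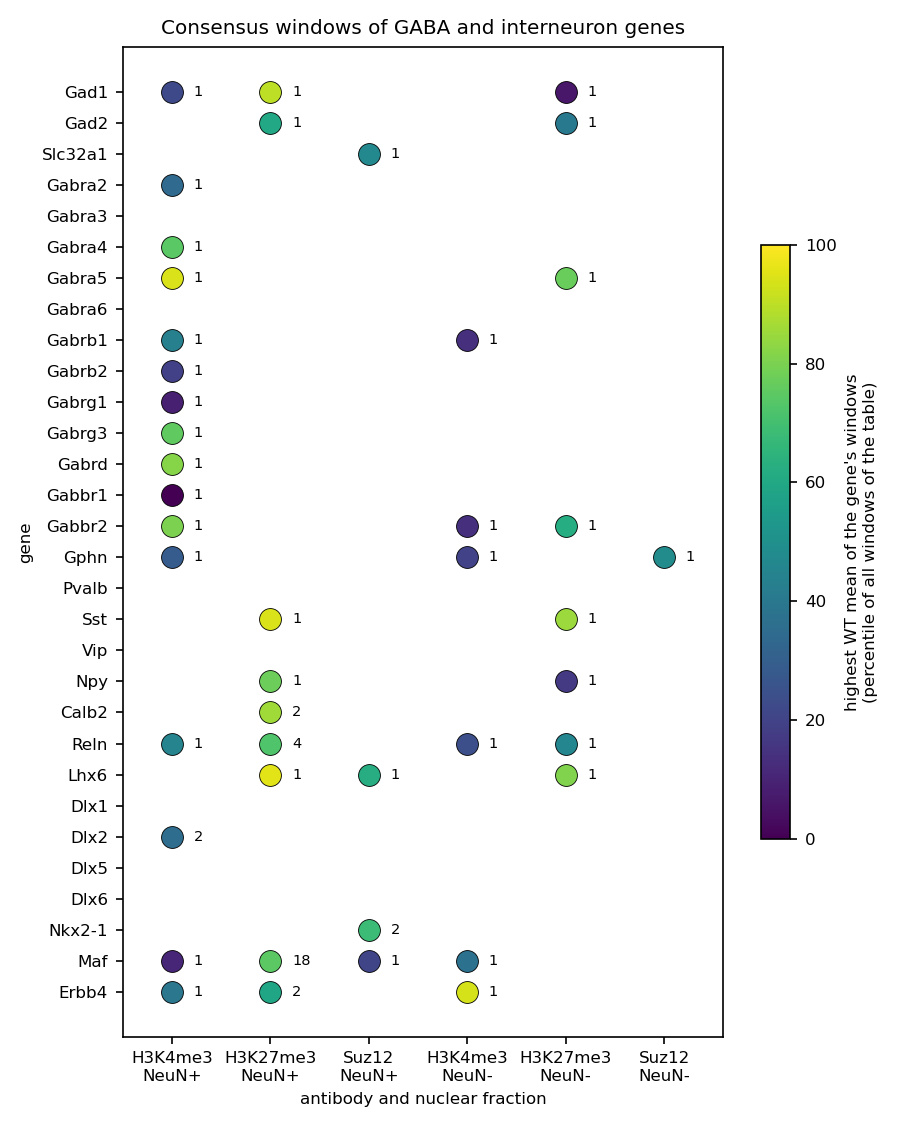
Number of consensus windows (digit beside each point) of each of the 30 genes (y axis) in the 6 tables (x axis), with the colour giving the highest WT mean of the gene's windows as a percentile of all windows of that table. The GABA-A subunits have points in the H3K4me3 NeuN+ column and none in the H3K27me3 NeuN+ column, Maf has 18 windows in H3K27me3 NeuN+, and 7 genes have no point.

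All 68 member windows and 99.98% of all windows are 401 bp wide, so levels can be compared between genes as normalised reads per window, the deposited unit. In H3K4me3 NeuN+ the median WT mean of the members was 19.5, against 23.4 over all windows. In H3K27me3 NeuN+ it was 5.94, against 5.20. The members of H3K27me3 NeuN+ had a median of 5 CpG and 46.6% GC, close to the 5 CpG and 47.9% of all windows there, and the members of Suz12 NeuN+ had 35 CpG and 72.1% GC, against 31 CpG and 64.3%. Of the 68 windows, 1 was mostly repeat sequence by the masking of the reference.

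Some members carried more than 1 mark. In NeuN+ nuclei, 4 of the 17 H3K4me3 windows (Gad1, Reln, Maf and Erbb4) lay within 2 kb of an H3K27me3 window of the same fraction, against 3.25% of all H3K4me3 windows. All 6 H3K4me3 windows of NeuN- nuclei lay within 2 kb of an H3K4me3 window of NeuN+ nuclei, as did 96.5% of all windows there. Whether both marks at a gene were on the same nuclei or on different neurons cannot be told apart in sorted bulk chromatin. Likewise, a lower value can come from fewer nuclei of a type or from less mark in each nucleus, and these cannot be told apart.

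In H3K4me3 NeuN+, Gad1 was the only member that passed the thresholds of the study, applied here to limma in place of its edgeR test. Regions were called differentially enriched (DER) where the log2 difference was beyond 0.5 in either direction and the limma p, before adjustment, was under 0.05. Members held 1 DER of 17 for Mutyh-/- (background 0.911% of all windows), 0 for Ogg1-/- (0.966%) and 0 for DKO (1.46%). The median log2 difference of the members was 0.09, 0.04 and -0.13 for Mutyh-/-, Ogg1-/- and DKO, beside -0.07, 0.08 and -0.02 over all windows. Of the 17, 11, 9 and 6 were above WT. The median for Ogg1-/- was -0.04 with TMM scaling.

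The H3K4me3 window of Gad1, the main GABA-synthesising enzyme of the cell body, lies at a transcript start (chr2:70562774-70563174). This start is inside the gene as annotated, which begins at chr2:70553072. The window gave 24.4, 6.83 and 16.2 normalised reads in WT. In Mutyh-/- it gave 5.45, 1.84 and 4.38. The values were 5.95, 1.03 and 17.7 in Ogg1-/- and 6.77, 8.85 and 12.9 in DKO. All 3 Mutyh-/- libraries were below all 3 WT libraries, while Ogg1-/- and DKO overlapped with WT. With 3 libraries per group, such separation, here and at the windows below, can also arise without a difference. Its share over all windows was not counted. In means, 3.89 ± 1.85 (SD, n = 3) stood against 15.8 ± 8.81 (SD, n = 3), a log2 difference of -1.71 ± 0.82 (SE) with an unadjusted p of 0.0458 and an adjusted p of 1.00 (limma). The counts behind it were 41 reads in WT and 12 in Mutyh-/-, a ratio of 0.254 with a 95% interval of 0.121 to 0.493 that covers counting error only. The window was no DER with robust moderation or with a pseudocount of 0.5. A filter on the lowest 25% of windows removed it. The DER was also lost without WT replicate 1 or 3 (log2 difference -1.33 or -1.61) and without Mutyh-/- replicate 2 or 3 (-1.35 or -1.82), and, through the shared estimate of spread, without DKO replicate 2 or 3 or Ogg1-/- replicate 1.

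The GABA-A subunits, which form the chloride channel, included the highest H3K4me3 level among the members, and none was a DER. Over their 8 windows the WT means ran from 11.3 at Gabrg1 to 36.6 at Gabra5, and the log2 differences ran from -0.39 (Gabra4) to 0.35 (Gabrb2) for Mutyh-/-, from -0.66 (Gabrg3) to 0.38 (Gabrb1) for Ogg1-/- and from -1.40 (Gabrb1) to 0.07 (Gabrb2) for DKO. Gabra5, whose alpha5 subunit is typical of hippocampal extrasynaptic receptors, had the highest member level, at a percentile of 94.4 among all windows. Its window (chr7:57509248-57509648) gave 42.4, 26.3 and 40.9 in WT, 28.3, 34.0 and 38.5 in Mutyh-/-, 42.8, 27.7 and 46.1 in Ogg1-/- and 24.8, 31.4 and 29.6 in DKO, and all groups overlapped. The limma log2 difference for DKO was -0.32, with a 95% interval from -1.08 to 0.44.

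The lowest values of DKO at Gabra2, Gabrb1 and Gabrd, subunits of synaptic (Gabra2, Gabrb1) or extrasynaptic (Gabrd) receptors, all came from the shallow DKO replicate 1. Gabrb1 gave 19.3, 21.5 and 23.7 in WT and 0, 27.3 and 20.5 in DKO. Gabra2 gave 21.9, 9.76 and 25.8 in WT and 0, 40.2 and 21.2 in DKO. Gabrd gave 34.7, 28.3 and 31.2 in WT and 6.77, 30.6 and 23.5 in DKO. At each of these genes at least 1 other DKO library reached into or beyond the WT range. Their log2 differences were -1.40 ± 0.72, -0.95 ± 0.79 and -0.83 ± 0.45 (SE), with an adjusted p of 1.00 each (limma). Gabrb1 was a DER in DKO with a replicate block and without the lowest 25% of windows (adjusted p = 1.00 in both, limma), and Gabrd was with TMM scaling (adjusted p = 0.845, limma). Without DKO replicate 2 all 3 were DERs (log2 difference -2.27 at Gabrb1, -1.99 at Gabra2 and -1.23 at Gabrd), and without DKO replicate 3 Gabrb1 (-2.07) and Gabrd (-1.05) were. At Gabrd the single knockouts were mostly lower too, with 29.4, 24.8 and 26.3 in Mutyh-/- and 26.2, 20.5 and 26.9 in Ogg1-/-. All Ogg1-/- libraries were below all WT libraries there, Mutyh-/- overlapped with WT, and neither was a DER. The window at Gabra4 lies 366 bp from a start of Gabrb1, so its reads can belong to either gene.

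The windows of the GABA-B subunits differed in level. Gabbr2 had a WT mean of 30.9 ± 10.4 (SD, n = 3), and Gabbr1, whose window was among the lowest of the table (percentile 0.194), had 1.33 ± 1.48 (SD, n = 3). The Gabbr1 window (chr17:37048408-37048808) lies at a transcript start inside the gene, which begins at chr17:37045966. No window lay within 2 kb of that first start, so the levels of both genes cannot be compared. The Gphn window gave 19.3, 16.6 and 17.2 in WT and 33.8, 22.1 and 22.8 in Mutyh-/-, with no overlap, at a log2 difference of 0.52 ± 0.47 (SE) and an adjusted p of 1.00 in limma. In Ogg1-/- it gave 29.8, 15.4 and 46.1 and in DKO 9.02, 26.5 and 25, both overlapping with WT.

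Dlx2, a transcription factor of the interneuron lineage, had no window at its promoter, and its closest window lay 34.3 kb upstream (chr2:71581040-71581440, intergenic). It gave 23.2, 12.7 and 22.6 in WT, 5.45, 8.27 and 25.4 in Mutyh-/-, 7.14, 9.23 and 29.2 in Ogg1-/- and 4.51, 17.7 and 17.4 in DKO. The groups overlapped, with log2 differences of -0.77, -0.54 and -0.68 (each ± 0.66, SE) and adjusted p of 1.00 (limma). The other Dlx2 window (chr2:71629429-71629829, intergenic) lies farther upstream and went the other way. Its means were 12.9, 13.8 and 15.5 in Mutyh-/-, Ogg1-/- and DKO, against 10.4 in WT. There the groups also overlapped, with log2 differences of 0.19, 0.45 and 0.66 (each ± 0.65, SE, limma). At Maf the window gave 7.72, 7.81 and 20.5 in WT and 21.4, 15.4 and 25.4 in Ogg1-/-, a log2 difference of 0.85 ± 0.56 (SE, adjusted p = 1.00, limma). Erbb4 and Reln had log2 differences between -0.25 and 0.26 in the 3 knockouts.

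**Figure D2:**
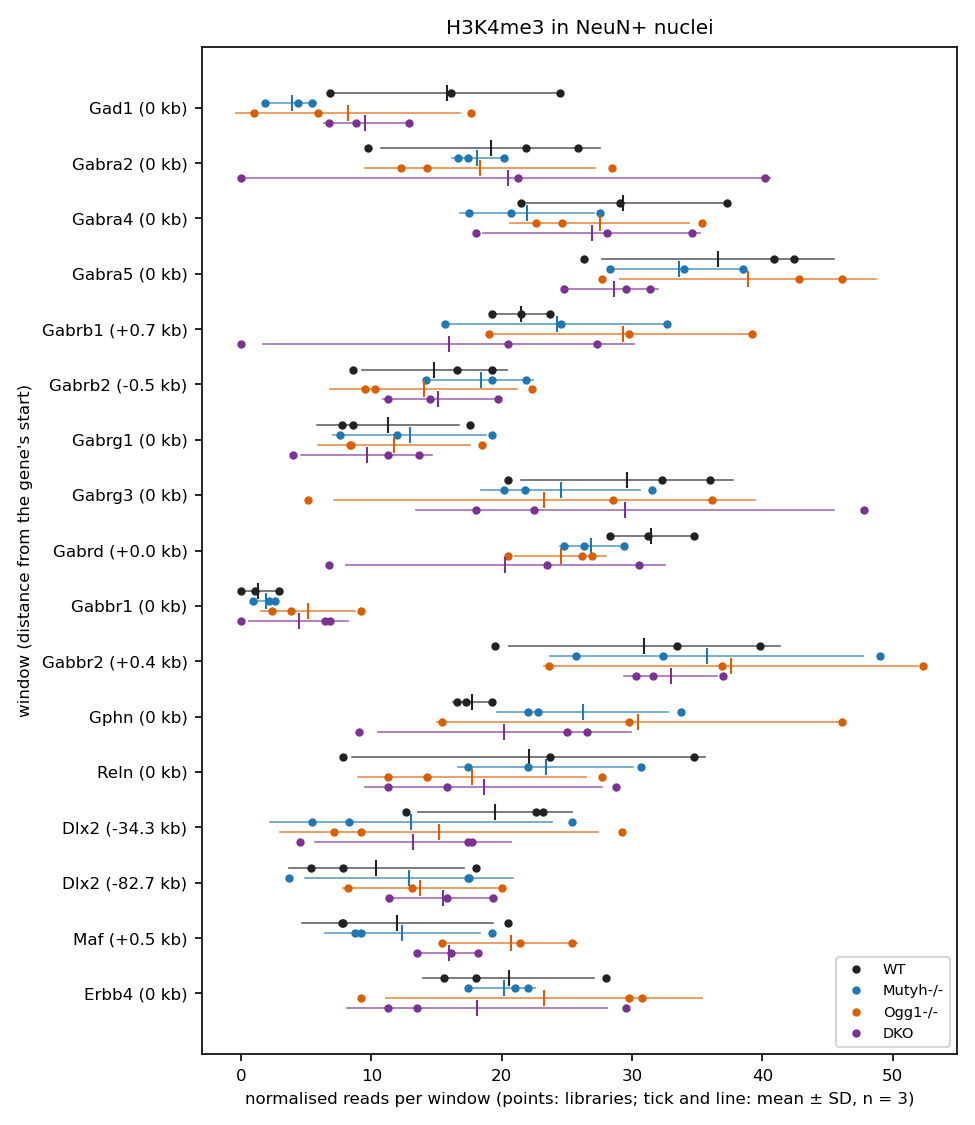
Normalised reads per window (x axis) of H3K4me3 in NeuN+ nuclei at the 17 member windows (y axis, with the distance from the start of the gene), with each library as a point and the mean ± SD (n = 3) as a tick and line, coloured by genotype. The Mutyh-/- points of Gad1 (1.84 to 5.45) lie below its WT points (6.83 to 24.4), and DKO has a point at 0 for Gabra2 and Gabrb1.

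In H3K27me3 NeuN+, 2 intergenic windows downstream of Maf were DERs, lower in Mutyh-/- at one and higher in DKO at the other. Members held 1 DER of 31 for Mutyh-/- (background 3.78%), 0 for Ogg1-/- (3.82%) and 1 for DKO (3.36%). These shares are near or below the background. The median log2 difference of the members was -0.44, -0.44 and -0.18 for Mutyh-/-, Ogg1-/- and DKO, beside -0.21, -0.11 and -0.01 over all windows, and 11, 10 and 13 of the 31 were above WT. With TMM scaling these medians were -0.36, -0.51 and -0.20, beside -0.11, -0.08 and -0.04. Replicate 1 had the lowest sum of member values in each knockout, at 77.1, 82.2 and 130 in Mutyh-/-, Ogg1-/- and DKO. The other knockout libraries gave 166 to 229, and WT gave 169 to 203. In replicate 1 of these knockouts, 26.67%, 23.98% and 23.11% of all windows had no read. This share was at most 16.17% in WT and 17.96% in the other knockout libraries. How much of the lower medians comes from replicate 1 was not tested.

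Maf encodes a leucine zipper factor needed for interneurons of the Sst and Pvalb classes. Its 18 windows in H3K27me3 NeuN+ spread over 773 kb, from 275 kb upstream to 498 kb downstream of its start, with 1 at the promoter. The window 262 kb downstream (chr8:115445148-115445548) gave 8.76, 7.75 and 5.17 in WT and 0, 0 and 0.999 in Mutyh-/-. It gave 0.991, 15.7 and 14.4 in Ogg1-/- and 8.74, 0.969 and 8.82 in DKO. Mutyh-/- was below WT in all libraries, and Ogg1-/- and DKO each had 1 low library and overlapped with WT. The log2 difference for Mutyh-/- was -2.68 ± 1.00 (SE), with an unadjusted p of 0.00736 and an adjusted p of 0.998 (limma). It rests on 21 reads in WT and 1 in Mutyh-/-, a ratio of 0.0490 with a 95% interval of 0.00119 to 0.305. It stayed a DER under all 6 other settings and without each of the 6 libraries of the contrast.

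The window 345 kb downstream (chr8:115362236-115362636) had no read in WT, with 0, 0 and 0, and gave 5.46, 1.94 and 3.21 in DKO. In Mutyh-/- it gave 3.04, 0 and 0 and in Ogg1-/- 0.991, 4.18 and 1.03. DKO was above WT in all libraries, on 11 reads in total. Ogg1-/- was also above WT in all libraries, on 1, 4 and 1 reads, and was no DER. The DKO mean was 1.15 times the level of 3 reads in each WT library, a limit used for a count of 0. That figure leaves out the counting error of DKO and is no lower bound. The exact 95% interval of the ratio of reads, for counting error only, began at 2.34. The log2 difference was 2.11 ± 0.96 (SE), with an unadjusted p of 0.0285 and an adjusted p of 0.998 (limma), and the DER was lost without DKO replicate 1 or any WT library.

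Over all 18 windows together, the Maf sums overlapped between genotypes. They were 90.9, 66.4 and 95.6 in WT, 38.5, 83.0 and 89.9 in Mutyh-/-, 45.6, 71.1 and 126 in Ogg1-/- and 61.2, 104 and 118 in DKO. Replicate 1 was the lowest library in each knockout. The promoter window of Maf gave 9.86, 6.64 and 6.89 in WT and differed by -1.26 to 0.24 on the log2 scale in the knockouts, with adjusted p of 0.983 or more in limma.

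**Figure D3:**
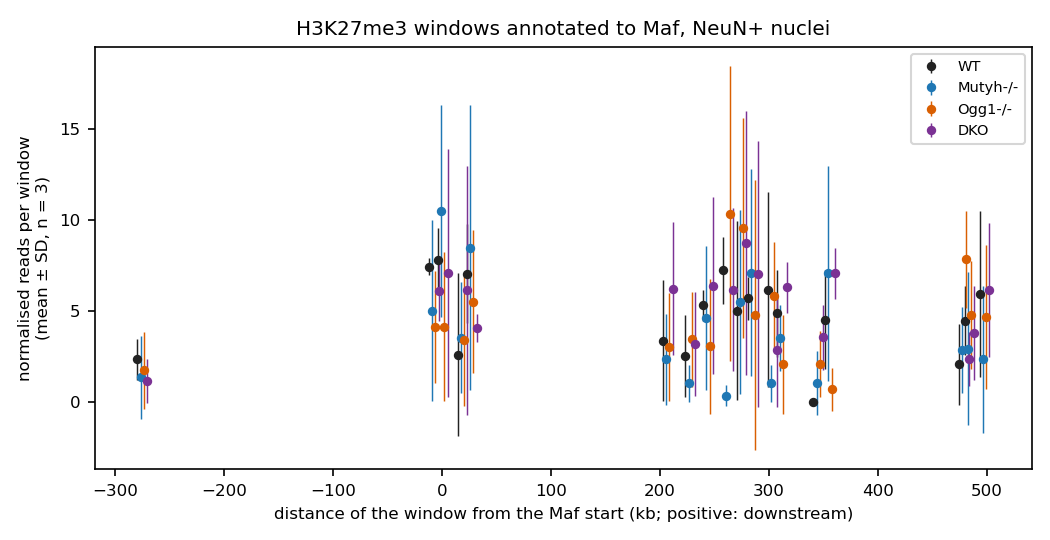
H3K27me3 in NeuN+ nuclei at the 18 windows annotated to Maf, as mean ± SD (n = 3) of the normalised reads per window (y axis) against the distance from the start of Maf in kb (x axis), with the 4 genotypes set side by side at each window. At 262 kb the Mutyh-/- mean (0.333) lies under the WT mean (7.23), at 345 kb the WT mean is 0, and at most other windows the bars overlap.

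Sst had the second highest H3K27me3 among the members, and its knockout libraries were mostly lower. The promoter window that holds the CRE (chr16:23890873-23891273) gave 15.3, 15.5 and 8.62 in WT. It gave 7.10, 7.74 and 2.00 in Mutyh-/-, 4.95, 7.32 and 1.03 in Ogg1-/- and 5.46, 7.75 and 9.63 in DKO. All libraries of both single knockouts were below the WT libraries, and 1 DKO library overlapped with them. How often windows separate in this way over the whole table was not counted. The log2 difference was -1.56 ± 0.82 (SE) in Ogg1-/- and -1.20 ± 0.82 (SE) in Mutyh-/-, with adjusted p of 0.983 and 0.998 in limma. With a replicate block, the Ogg1-/- window was a DER (adjusted p = 0.891, limma).

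Lhx6, which acts downstream of Nkx2-1 in Sst and Pvalb interneurons, had the highest level, with a WT mean of 13.9 at a percentile of 95.5. Its intronic window (chr2:36097092-36097492) gave 13.1, 8.86 and 19.8 in WT, 3.04, 13.3 and 16.0 in Mutyh-/-, 1.98, 25.1 and 17.5 in Ogg1-/- and 12.0, 13.6 and 12.0 in DKO. The groups overlapped, and the log2 differences were -0.52, -0.34 and -0.08 with adjusted p of 0.992 or more in limma. The Ogg1-/- libraries ranged more widely than the WT libraries, from 1.98 to 25.1.

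Both GAD genes carried H3K27me3 in NeuN+ nuclei. The Gad1 window (chr2:70563273-70563673) gave 4.38, 14.4 and 13.8 in WT, 0, 4.42 and 8.99 in Mutyh-/-, 3.96, 7.32 and 5.14 in Ogg1-/- and 2.19, 10.7 and 18.4 in DKO. It overlapped between groups, with a log2 difference of -1.5 ± 0.85 (SE) for Mutyh-/- (adjusted p = 0.998, limma). The Gad2 window, 307 bp downstream of the start (chr2:22622512-22622912), gave 5.48, 7.75 and 5.17 in WT, 6.09, 8.85 and 16.0 in Mutyh-/-, 0, 12.5 and 9.25 in Ogg1-/- and 4.37, 6.79 and 18.4 in DKO. Its log2 differences were 0.59, -0.44 and 0.41, with adjusted p of 0.992 or more in limma. At Gad1 the means of both marks were below WT in all 3 knockouts, at 3.89, 8.22 and 9.5 against 15.8 for H3K4me3 and 4.47, 5.47 and 10.4 against 10.9 for H3K27me3, and only H3K4me3 in Mutyh-/- was a DER.

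Npy, the gene of neuropeptide Y, had its window 1047 bp downstream of the start (chr6:49823757-49824157). It gave 2.19, 15.5 and 6.89 in WT, 10.1, 8.85 and 5.99 in Mutyh-/-, 0, 2.09 and 3.08 in Ogg1-/- and 2.19, 2.91 and 4.01 in DKO. WT ranged widely and overlapped with each knockout. The log2 difference was -1.68 ± 0.97 (SE) for Ogg1-/- (adjusted p = 0.983, limma). Calb2, the gene of the calcium binding protein calretinin, had a promoter window of 9.81 ± 2.74 normalised reads (SD, n = 3) in WT against 5.49 ± 1.93 in DKO (log2 difference -0.76, adjusted p = 0.998, limma). Reln, a secreted glycoprotein of Cajal-Retzius cells and interneurons, had 4 windows with WT means of 3.11 to 7.48. The highest of them (chr5:22008182-22008582) gave 7.67, 4.43 and 10.3 in WT and 0, 6.64 and 4.00 in Mutyh-/-. It gave 0, 0 and 8.22 in Ogg1-/- and 0, 2.91 and 4.01 in DKO, where only DKO did not overlap with WT. The window 755 bp from the start went the other way in Ogg1-/- and DKO, with means of 9.60 and 9.29 against 5.71 in WT. No Reln window was a DER. Erbb4 gave 5.48, 6.64 and 6.03 in WT and 10.9, 17.4 and 11.2 in DKO at its promoter, with no overlap, a log2 difference of 0.98 ± 0.78 (SE) and an adjusted p of 0.998 in limma.

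**Figure D4:**
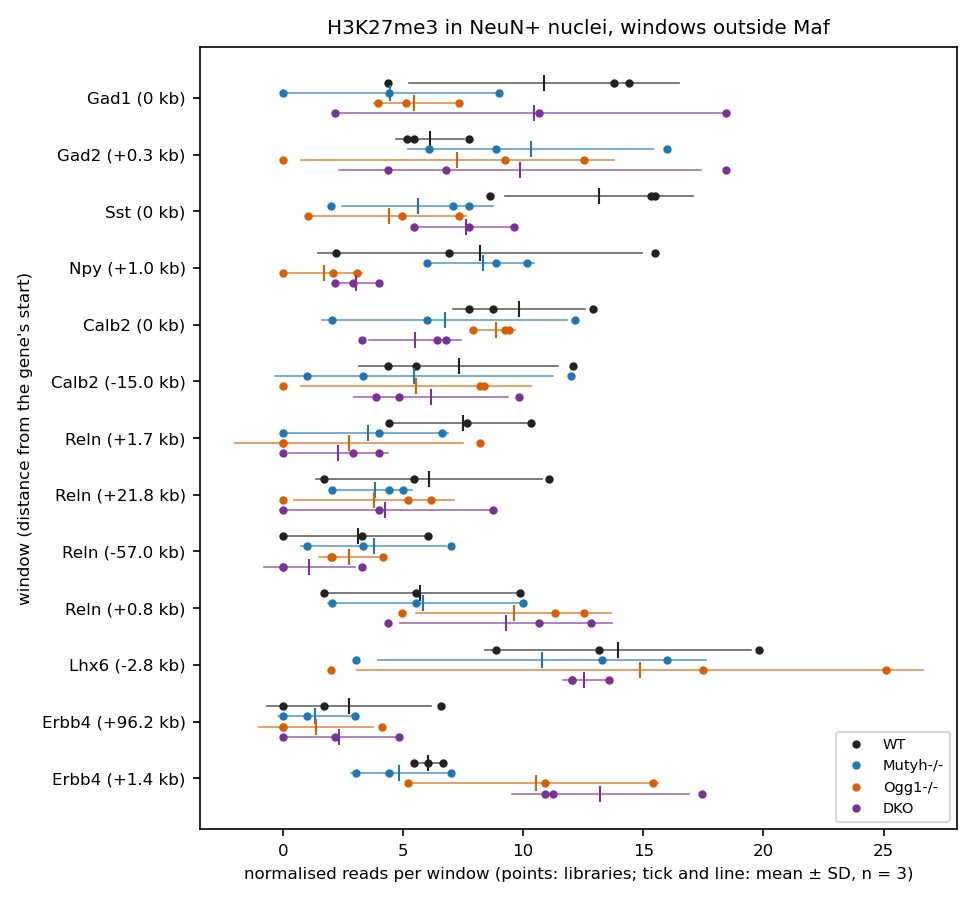
Normalised reads per window (x axis) of H3K27me3 in NeuN+ nuclei at the 13 member windows outside Maf (y axis, with the distance from the start of the gene), with libraries as points, mean ± SD (n = 3) as tick and line, and genotypes by colour. At Sst the WT points (8.62 to 15.5) lie above those of Mutyh-/- and Ogg1-/- (1.03 to 7.74), and at most other windows the genotypes overlap.

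Suz12 in NeuN+ nuclei lay at promoters of Slc32a1 and of 3 transcription factors. None was a DER, in Mutyh-/- (0 of 5, background 5.16%), Ogg1-/- (3.74%) or DKO (2.58%). With a replicate block the members still had 0, while DERs over all 775 windows went from 40 to 103 in Mutyh-/-. The median log2 difference was -0.87, -0.24 and -0.13, beside -0.63, -0.57 and -0.06 over all windows. With TMM scaling, which moved the median of all windows to -0.08, -0.09 and 0.09, the member medians were -0.27, 0.30 and 0.03, so that their sign turned in Ogg1-/- and DKO.

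Slc32a1 (chr2:158610778-158611178) gave 8.05, 16.8 and 9.40 in WT, 0, 11.4 and 13.2 in Mutyh-/-, 6.94, 14.1 and 9.40 in Ogg1-/- and 10.2, 9.39 and 5.51 in DKO. All groups overlapped. At the Lhx6 promoter (chr2:36105064-36105464) the values were 5.36, 18.8 and 18.8 in WT, 4.92, 19.7 and 13.2 in Mutyh-/-, 0.991, 15.3 and 5.64 in Ogg1-/- and 4.25, 12.5 and 26.0 in DKO. Replicate 1 was the lowest in each genotype. The adjusted p was 0.915 or more at both genes in limma.

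Nkx2-1, which starts the medial ganglionic eminence programme, had both its windows near its start. The one with the highest WT level (chr12:56536076-56536476) gave 12.1, 13.9 and 20.1 in WT and 4.92, 8.29 and 11.2 in Mutyh-/-, with no overlap, and 5.95, 17.7 and 13.2 in Ogg1-/- and 5.1, 8.35 and 13.4 in DKO. The log2 difference for Mutyh-/- was -0.87 ± 1.08 (SE, adjusted p = 0.916, limma). The other window (chr12:56533998-56534398) gave 0, 21.8 and 21.5 in WT. The smallest unadjusted p among the members of this table was at the Maf promoter (chr8:115706926-115707326), which gave 0, 9.90 and 9.40 in WT, 0, 8.29 and 0 in Mutyh-/-, 3.96, 13.0 and 0 in Ogg1-/- and 5.1, 16.7 and 19.7 in DKO. DKO overlapped with WT there, at a log2 difference of 1.43 ± 1.26 (SE) and an adjusted p of 0.999 in limma.

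In NeuN- nuclei the H3K4me3 windows were at Gabrb1, Gabbr2, Gphn, Reln, Maf and Erbb4, and none was a DER in Mutyh-/- (0 of 6, background 2.94%), Ogg1-/- (3.36%) or DKO (2.29%). The median log2 difference was -0.28, -0.01 and 0.33, beside 0.22, 0.25 and 0.05 over all windows, and with TMM scaling -0.52, -0.27 and 0.31, beside 0.01, 0.07 and 0.02. Erbb4, which glial precursors also express, had the highest level (percentile 93.4). It gave 13.8, 15.0 and 15.4 in WT, 14.3, 6.05 and 9.75 in Mutyh-/-, 11.9, 3.99 and 9.94 in Ogg1-/- and 11.1, 10.0 and 6.70 in DKO. Ogg1-/- and DKO were below WT without overlap, with log2 differences of -0.82 ± 0.71 and -0.64 ± 0.71 (SE) and adjusted p of 0.999 in limma. Gphn gave 16.6, 0.788 and 0 in WT, 5.71, 5.19 and 3.25 in Mutyh-/-, 7.92, 0.798 and 11.4 in Ogg1-/- and 14.9, 3.57 and 5.59 in DKO. WT replicate 1 was far above the other WT libraries, and the log2 difference for DKO was 1.31 ± 1.10 (SE, adjusted p = 0.999, limma). Without that library it was 2.55 and a DER (adjusted p = 0.998, limma).

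H3K27me3 in NeuN- nuclei was found at both GAD genes, Gabra5, Gabbr2, Npy, Reln, Sst and Lhx6. None was a DER in Mutyh-/- (0 of 8, background 2.00%), Ogg1-/- (4.18%) or DKO (2.30%). The member medians of 1.19, 1.28 and 0.37 stood beside 0.29, 0.58 and 0.41 over all windows, and with TMM scaling 1.08, 0.89 and 0.33 stood beside 0.12, 0.24 and 0.20. WT had 0 reads at several members in replicates 1 and 2. Reln (chr5:22344161-22344561) gave 0, 0 and 9.23 in WT, 10.6, 11.6 and 2.31 in Mutyh-/-, 9.64, 8.17 and 7.15 in Ogg1-/- and 6.94, 4.62 and 7.95 in DKO. WT replicate 3 lay among the knockout values and the other WT libraries below them. The log2 difference for Ogg1-/- was 2.09 ± 1.13 (SE, adjusted p = 0.963, limma). Without WT replicate 3 Reln was a DER in all 3 knockouts, at log2 differences of 2.97, 3.21 and 2.88 and adjusted p of 0.998 or more (limma). With a replicate block it was a DER in Ogg1-/- (adjusted p = 0.555, limma) and in Mutyh-/- (adjusted p = 0.857, limma).

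Gad1 (chr2:70564723-70565123) gave 0, 0 and 1.15 in WT, 10.6, 0 and 5.78 in Mutyh-/-, 9.64, 0 and 5.96 in Ogg1-/- and 6.94, 0 and 6.81 in DKO. Replicate 2 had no read in any genotype, and the other knockout libraries were above WT. Its log2 differences were 1.73, 1.70 and 1.62, with adjusted p of 0.963 or more in limma. Gad2 (chr2:22624786-22625186) gave 0, 0 and 8.07 in WT, 5.76, 3.17 and 3.47 in Mutyh-/-, 8.77, 1.63 and 8.35 in Ogg1-/- and 1.73, 0.925 and 3.41 in DKO. WT replicate 3 lay within the Ogg1-/- range and above the other knockout libraries.

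Sst had the highest WT level of the table among members (percentile 85.1). It gave 7.94, 7.46 and 4.61 in WT, 18.3, 0 and 4.62 in Mutyh-/-, 5.26, 3.27 and 2.38 in Ogg1-/- and 11.3, 5.55 and 3.41 in DKO, and the groups overlapped. Npy gave 1.32, 0 and 2.31 in WT, 5.76, 5.28 and 2.31 in Mutyh-/-, 10.5, 0 and 11.9 in Ogg1-/- and 0.867, 6.47 and 0 in DKO. At Lhx6 the values were 7.94, 3.32 and 6.92 in WT, 15.4, 9.50 and 0 in Mutyh-/-, 15.8, 2.45 and 9.54 in Ogg1-/- and 13.0, 0 and 1.14 in DKO. None of these 3 genes had an adjusted p under 0.963 in limma.

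Suz12 in NeuN- nuclei had a single member window, in an intron of Gphn 124 kb from its start (chr12:78350771-78351171), which was not a DER in Mutyh-/- (0 of 1, background 3.85%), Ogg1-/- (11.2%) or DKO (6.73%). It gave 10.1, 0 and 4.12 in WT, 5.51, 4.36 and 14.4 in Mutyh-/-, 4.60, 6.27 and 5.72 in Ogg1-/- and 10.8, 0 and 0 in DKO. The groups overlapped, with a log2 difference of 1.08 ± 1.29 (SE) for Mutyh-/- (adjusted p = 0.997, limma).

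Over the 6 tables, 3 of 204 member tests gave a DER (1.47%), against 2.13% of all tests. No member had an adjusted p under 0.05 in limma, where 0.0219% of all tests did. The smallest adjusted p of a member was 0.874, and the 3 DERs were also the only members with an unadjusted p under 0.05. edgeR on the recovered reads gave 3 members at an unadjusted p under 0.05 and 0 after adjustment. The 3 contrasts of a table share their WT libraries. A double knockout effect that was not the sum of both single effects was found at 0 members after adjustment in limma (background 0.0175%) and at 1 without adjustment, Gad1 in H3K4me3 NeuN+, where the non-additive part was 2.38 ± 1.16 (SE, adjusted p = 1.00, limma).

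Whether a knockout acted differently in the fractions was tested at the 8 windows that matched between them, which were Gabrb1, Gabbr2, Gphn, Reln, Maf and Erbb4 for H3K4me3 and Sst and Lhx6 for H3K27me3. The difference of differences, NeuN+ minus NeuN-, ran from -1.70 to 1.52 on the log2 scale. The smallest adjusted p was 0.953 in limma. No member passed, and neither did any other matched window (background 0%), with 0 member tests and 219 of all tests at an unadjusted p under 0.05.

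**Figure D5:**
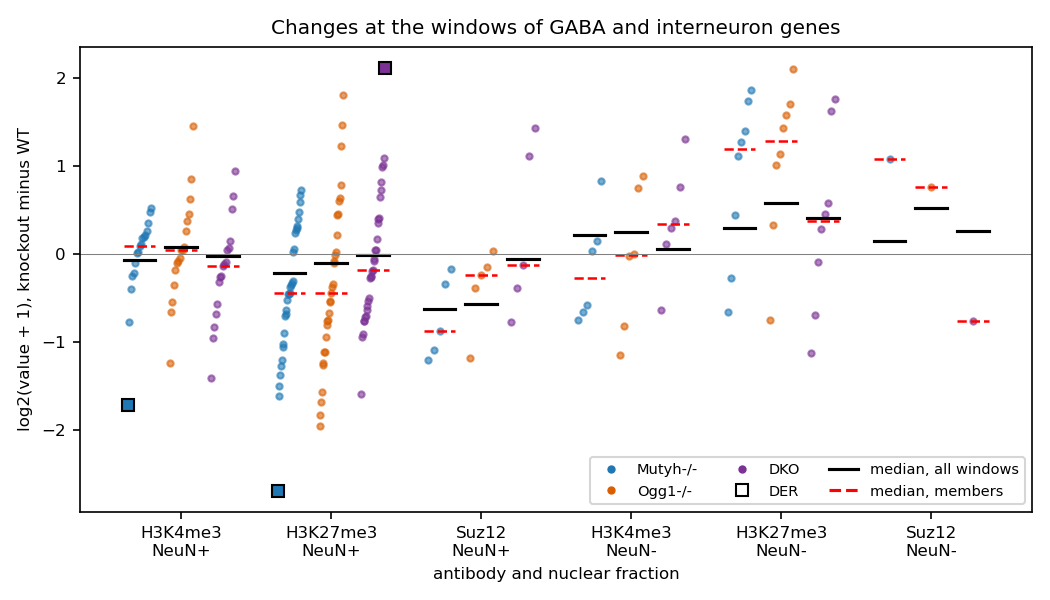
Log2(value + 1) difference from WT (y axis) of each member window in the 6 tables (x axis), with knockouts by colour and DERs as squares, and the median of all windows (black line) and of the members (dashed red line). The 3 squares are Gad1 (-1.71), Maf at 262 kb (-2.68) and Maf at 345 kb (2.11), and the member medians of H3K27me3 NeuN- for Mutyh-/- (1.19) and Ogg1-/- (1.28) lie above those of all windows.

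The rest of the pathway was followed with a list of 59 other genes of GABA receptors, transport, synapses and interneuron development. They had 143 windows and 15 DERs in 429 tests (3.5%), of which 11 were higher than WT. Of these 15, 8 were at Kctd16, an auxiliary subunit of the GABA-B receptor, and without it the list had 7 DERs in 411 tests (1.70%). Among those 7, Nr2f2 and Sox6 had 2 each and Prox1 and Slc6a13 had 1 each, and 3 of the 7 were higher than WT. Kctd16 was singled out after its values were seen. Its intronic window, 49.2 kb from the start, had nearly the same position in 5 of the 6 tables, under all 3 antibodies. In H3K4me3 NeuN- it gave 31.8, 17.3 and 13.0 in WT, 79.0, 69.1 and 53.6 in Mutyh-/-, 71.3, 31.9 and 69.6 in Ogg1-/- and 39.9, 52.2 and 35.7 in DKO. All knockout libraries were above all WT libraries in this table, the lowest by a small margin. The log2 differences were 1.73 (adjusted p = 0.0289, limma), 1.44 (adjusted p = 0.245, limma) and 1.08 (adjusted p = 0.999, limma). With edgeR or other settings the adjusted p for Mutyh-/- ran from 0.00750 to 0.999, and it was under 0.05 in 2 of 6. For H3K27me3 and Suz12 in both fractions, at least 1 WT library lay within the range of the knockout libraries. In H3K27me3 NeuN- WT gave 54.3, 8.29 and 4.61, and the knockouts 36.3 to 99.9. In Suz12 NeuN- WT gave 54.9, 11.6 and 0, and the knockouts 25.3 to 92.9. The H3K4me3 window at the start of Kctd16 in NeuN+ nuclei gave 14.1, 23.4 and 18.3 in WT and had means of 19.3 to 20.4 in the knockouts.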

How the data were processed

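H3K4me3, H3K27me3 and Suz12 ChIP-seq in NeuN+ and NeuN- hippocampal nuclei was compared between 4 genotypes with 3 replicates each. Per the methods and labels, the authors aligned single-end reads with Bowtie2 2.3.5.1 to GRCm38, called enriched regions with epic2, kept those found in most replicates of a group, counted and normalised reads with DiffBind 3.10.1 and annotated windows with ChIPseeker 1.36. Handling of duplicates and of the 24 input libraries, which were not used here, is not given in the sources used here. The deposited values are a normalised signal per window, 401 bp wide in 99.98% of windows. Each value was a whole multiple of 1 step per library (100% of values, tolerance 0.01 reads), which gave back the reads.

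Values were tested as log2(value + 1) with limma 3.58.1 in R 4.3.3 (12 libraries per table, genotype as the only term, trended variance, Benjamini-Hochberg adjustment over all windows), so a fold change of a low window is understated. The step was tested on simulated data. Alternatives were TMM factors, edgeR 4.0.16 on the recovered reads, robust moderation, a pseudocount of 0.5, no windows in the lowest 25%, a replicate block and leaving out each library. Intervals on reads are exact 95% intervals and, like the limit of 3 reads for a count of 0, cover counting error only. Replicates are pools, and p-values measure the spread between them, moderated over the windows of a table. For H3K27me3 and Suz12 in both fractions the prior degrees of freedom were infinite. There the SE and p of a window rest on the trend over all windows, and its own libraries carry no weight in the spread. Same-numbered libraries deviated together at a correlation over 0.1 in every pair only for Suz12 NeuN+ in Mutyh-/- (0.388, 0.186 and 0.119), where the block gave no member DER but 103 over all windows in place of 40. The labels do not say that a number marks a shared batch.

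Every member is named. Values per library are given for DERs, for the smallest p and the highest WT mean of each table, and for the window nearest the start of Gad1, Gad2, Slc32a1, Pvalb, Sst, Vip, Npy, Lhx6, Nkx2-1 and the Dlx genes. Members and lists were chosen with earlier results of these data known. Of the starts in the deposited annotation, 99.4% were in GENCODE vM21 on GRCm38, whose genome gave the sequences. Figures were drawn with matplotlib 3.10.9.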

Additional observations from a re-analysis of the deposited data

How the results depend on the processing

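The Maf window at 262 kb was a DER in Mutyh-/- under all 6 other settings and all 6 omissions of a WT or Mutyh-/- library (log2 difference -3.01 to -2.51 over the omissions). No member passed an adjusted p of 0.05, a non-additive test or the test between fractions under any alternative run, and Suz12 gave 0 member DERs throughout. The edgeR form of the test between fractions was not run. Counts of member DERs moved elsewhere, and the cause was not tested except where fewer windows or samples entered. In H3K4me3 NeuN+ the count of 1 became 2 with TMM factors, 0 with robust moderation, 0 with a pseudocount of 0.5 and 2 with the replicate block, stayed 1 without the lowest windows, where Gad1 dropped out and Gabrb1 in DKO was the DER, and ranged from 0 to 3 over omitted libraries, with 3 without DKO replicate 2 or Ogg1-/- replicate 3, 2 without DKO replicate 3 or Ogg1-/- replicate 2, and 0 without WT replicate 1 or 3, Mutyh-/- replicate 2 or 3, or Ogg1-/- replicate 1. In H3K27me3 NeuN+ the count of 2 became 1 without the lowest windows, which removed the Maf window at 345 kb, and ranged from 1 to 7, with 7 without Ogg1-/- replicate 3, 5 without Mutyh-/- replicate 3 and 1 without WT replicate 3 or DKO replicate 1. In H3K4me3 NeuN- the count of 0 ranged from 0 to 1, with 1 without WT replicate 1, and in H3K27me3 NeuN- it became 1 with a pseudocount of 0.5, 2 with the replicate block and 0 to 4 over omissions, with 4 without WT replicate 3, 2 without Ogg1-/- replicate 2 and 1 without DKO replicate 2 or Mutyh-/- replicate 2 or 3. The other 59 genes gave 25 DERs with TMM factors in place of 15. Over all windows of H3K4me3 NeuN+, the DERs of Mutyh-/-, Ogg1-/- and DKO numbered 115, 122 and 185 as reported, 473, 481 and 699 with TMM factors and 506, 501 and 490 with edgeR. In H3K4me3 NeuN- they went from 96, 110 and 75 to 157, 167 and 176 with TMM factors and 187, 180 and 146 with the replicate block. In H3K27me3 NeuN- they went from 34, 71 and 39 to 83, 136 and 75 with the block, while Mutyh-/- had 79 with TMM factors and 73 with edgeR and DKO had 66 with edgeR. The block gave 103, 98 and 38 in Suz12 NeuN+ in place of 40, 29 and 20, and 242 in place of 156 for Mutyh-/- in H3K27me3 NeuN+. Without the lowest windows, where fewer were tested, 10 of the 18 counts fell by more than 1.5 times. TMM scaling turned the sign of 11 of 204 member changes, 5 of them in Suz12 NeuN+, and of no DER. Most member windows held few reads, and which differences this depth can show was not tested.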
